A study of Homo sapiens with 8 samples.

Results

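Subtelomeric accessible regions are the parts of open chromatin that lie close to chromosome tips, here the regions whose centre lay within 500 kb of either end of chromosomes 1 to 22 in hg38. They were taken by position alone from the merged peaks of 8 ATAC-seq libraries, an assay of DNA open to a transposase, made from the human embryonic kidney line HEK293T. There were 689 such regions among 96872 in the whole series. The E92K group was 4 libraries of cells carrying the lentivector of H2A(E92K), a histone H2A with a glutamate of the nucleosome's acidic patch changed to lysine. The H2A group was 4 libraries of cells carrying the lentivector of H2A without that change. Both groups share the HEK293T background, and no treatment or change to the cells' own H2A genes is listed for either. The labels call the cells transfected in one place and name a lentivector in another, give genomic DNA as the material beside a note on harvested RNA, and do not say how many clones or cultures were used. The groups were compared to ask whether the mutant histone goes with a change in which sites near chromosome ends are open.

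A subtelomere is the stretch between the telomere repeat array and the unique sequence of a chromosome arm. It is built largely of blocks copied between chromosome ends, and it carries families such as olfactory receptor genes and the DUX4 repeats. Telomeres are transcribed into an RNA called TERRA from start sites in the subtelomere, and the insulator protein CTCF is known to bind near those start sites. Genes placed next to a telomere can be silenced, an effect called telomere position effect.

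The lists held between 55527 and 62044 peaks, and each of the 8 libraries had 414 to 468 of the 689 subtelomeric regions. The genome-wide background that the peaks were tested against, which scales with depth, was 2.23 to 2.68 fragments in E92K libraries and 2.52 to 2.93 fragments in H2A libraries, so the E92K libraries were on the whole the shallower ones and the ranges overlapped. Median pileups at subtelomeric summits were 39 to 44.5 fragments, and a region without a peak was below calling at that depth, not shown to be closed. All 8 genes fixed as markers of HEK293T (PAX2, SIX2, WT1, LHX1, SALL1, NEFL, NEFM and INA) had a promoter peak in all 8 libraries. Of 8 markers of other cell types, 6 had none in any library, and PTPRC and APOA1 had one in 1 library each. Whether replicates came from separate cultures is not labelled, and p-values therefore cover the spread of these libraries alone, which may be technical.

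The regions nearest to the tips are shown first, because their sequence links ends that the chromosome numbers keep apart. Each sequence is 200 bases of hg38 around the median summit, read on the plus strand. Capitals mark each match on either strand to the 12-letter core CCANNAGNNGGC of the CTCF site, a core chosen after these sequences had been read. The first set holds the terminal regions with such a match.
2p, chr2:11587-11786, plus strand: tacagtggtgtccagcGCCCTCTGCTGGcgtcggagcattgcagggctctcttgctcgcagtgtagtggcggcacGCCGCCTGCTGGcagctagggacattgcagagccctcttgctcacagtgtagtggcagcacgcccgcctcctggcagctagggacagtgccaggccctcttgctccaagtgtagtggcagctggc
9p, chr9:11294-11493, plus strand: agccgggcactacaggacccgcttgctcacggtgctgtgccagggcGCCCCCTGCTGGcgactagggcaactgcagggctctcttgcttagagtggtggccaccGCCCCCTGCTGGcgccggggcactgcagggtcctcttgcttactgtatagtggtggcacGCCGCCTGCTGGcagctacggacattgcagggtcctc
11q, chr11:135075848-135076047, plus strand: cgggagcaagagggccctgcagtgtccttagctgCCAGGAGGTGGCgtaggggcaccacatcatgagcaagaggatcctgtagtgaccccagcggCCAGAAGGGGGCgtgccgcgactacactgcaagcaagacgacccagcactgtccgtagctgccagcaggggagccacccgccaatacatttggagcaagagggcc
5p, chr5:13151-13350, plus strand: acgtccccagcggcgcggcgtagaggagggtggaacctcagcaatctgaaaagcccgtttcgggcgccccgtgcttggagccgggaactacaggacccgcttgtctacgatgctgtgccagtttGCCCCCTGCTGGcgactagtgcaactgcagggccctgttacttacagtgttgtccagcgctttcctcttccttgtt
The 2p and 11q stretches hold 2 matches each, the 9p stretch 3 and the 5p stretch 1. The whole 9p region was 87.9% identical to its best match in the 2p region, the 11q region 75.5% and the 5p region 66.0%. The 5p region was 65.2% identical to its best match in the 9p region and 56.4% in the 11q region. The 11q match was on the opposite strand, so both arms carry the matching sequence in the same direction relative to the tip. Pairs of a terminal region with the core and one without it reached 50.8% to 57.3% by the same alignment, so the 5p and 11q regions were no more alike than such pairs.

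The second set has no match to the core and holds 3 ends of near-identical sequence with a more distant relative on 5p.
16p, chr16:10129-10328, plus strand: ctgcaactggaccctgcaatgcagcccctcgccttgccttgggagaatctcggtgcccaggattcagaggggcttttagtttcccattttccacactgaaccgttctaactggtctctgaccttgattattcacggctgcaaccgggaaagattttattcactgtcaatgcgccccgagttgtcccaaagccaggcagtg
9p, chr9:10620-10819, plus strand: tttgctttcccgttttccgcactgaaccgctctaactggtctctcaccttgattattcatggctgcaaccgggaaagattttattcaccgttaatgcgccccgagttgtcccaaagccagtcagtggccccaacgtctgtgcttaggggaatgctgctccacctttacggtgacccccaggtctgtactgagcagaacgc
15q, chr15:101980398-101980597, plus strand: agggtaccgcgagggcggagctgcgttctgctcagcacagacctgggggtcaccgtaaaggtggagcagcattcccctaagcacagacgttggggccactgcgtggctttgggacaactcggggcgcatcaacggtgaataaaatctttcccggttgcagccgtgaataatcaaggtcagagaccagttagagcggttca
5p, chr5:12083-12282, plus strand: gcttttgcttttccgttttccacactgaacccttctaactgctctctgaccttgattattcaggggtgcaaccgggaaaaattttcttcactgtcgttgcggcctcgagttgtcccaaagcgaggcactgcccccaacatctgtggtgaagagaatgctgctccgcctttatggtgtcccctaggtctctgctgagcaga
The 9p region was 96.3% identical to 15q and 93.9% to 16p, and 15q was 93.0% identical to 16p. The 5p region was 83.2% to 84.2% identical to these 3. The 7q region, not printed, also lacks the core, and these 4 regions were 78.2% to 79.9% identical to their best match in it, while the whole 7q region reached 67.5% to 74.8% in them. The 15q region, on a long arm, again matched the short-arm regions on the opposite strand. Within 250 bp of their centres, the 7q, 15q and 16p regions held 2 tandem copies of the telomere repeat, TTAGGGTTAGGG on either strand. They were the only 3 of the 689 regions to do so (0.435%), against 13 of all 96872 regions (0.0134%).

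The terminal regions differed in how often they were called. Distances run from the hg38 chromosome end and count its unsequenced bases. At 2p, 5p, 7q, 9p, 11q, 15q and 16p, 490000 of the 500000 bases of the window are sequenced. The terminal regions thus lie nearer to the edge of the sequence than their distances say. The 11q region (chr11:135075777-135076147, 10.7 kb from the tip, over the start of the noncoding RNA LINC02684) had a peak in all 8 libraries, and its fold enrichment, the authors' own ratio of the summit over local background, was 8.08, 6.37, 6.63 and 6.83 in E92K libraries and 10.22, 8.54, 9.12 and 10.87 in H2A libraries. All 4 E92K values lay below the lowest H2A value. The 2p region (chr2:11391-11955, 11.7 kb from the tip, 34.8 kb from the start of FAM110C) had folds of 10.42, 10.06, 7.08 and 8.60 in E92K libraries and 10.59, 8.05, 9.25 and 10.92 in H2A libraries. Here the groups overlapped.

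A pair of neighbouring regions on 5p was also called in all 8 libraries. The outer one (chr5:11926-12348) had folds of 3.82, 4.62, 5.09 and 6.33 in E92K libraries and 3.17, 3.63, 4.48 and 4.76 in H2A libraries. The inner one (chr5:13016-13503), which holds the CTCF core, had folds of 9.93, 8.48, 9.13 and 8.33 in E92K libraries and 10.54, 10.01, 8.87 and 9.54 in H2A libraries. The groups overlapped for both, and in each library the inner peak was the stronger of the pair. The fifth region nearest to a tip among those called everywhere was the promoter of RABL2B, which encodes a small GTPase of the cilium, 35 kb from the end of 22q (chr22:50783177-50783850), with folds of 13.38, 17.81, 15.55 and 14.77 in E92K libraries and 15.41, 14.15, 16.52 and 15.98 in H2A libraries.

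The other 5 regions within 15 kb of a tip were called in some libraries only. The 7q region had a peak in 3 E92K and 4 H2A libraries, with folds of 4.84 to 7.95. The 16p region had one in 3 E92K and 2 H2A libraries, with folds of 3.09 to 5.22. The 15q region had one in 4 E92K libraries, with folds of 3.4 to 4.89, and in 1 H2A library, with a fold of 2.96. The near-identical 9p region had one in 2 E92K and 1 H2A libraries, with folds of 5.24 to 6.79. The 9p region with 3 CTCF cores was called in H2A replicate 4 alone, where its fold of 18.86 and pileup of 79 fragments were the highest of any region within 15 kb of a tip in any library. No other list had a peak there.

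**Figure D1:**
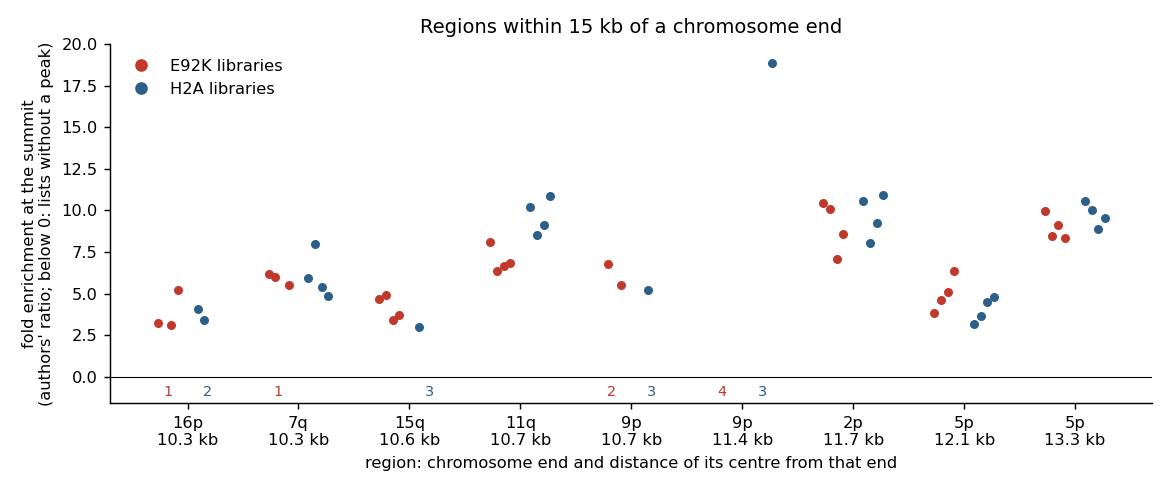
Fold enrichment at the summit (vertical axis, the authors' ratio) of the 9 regions within 15 kb of a chromosome end, ordered by distance, with 1 point per library in replicate order. Coloured numbers below 0 count the lists of that group without a peak. The 11q region had lower folds in all 4 E92K libraries (6.37 to 8.08) than in any H2A library (8.54 to 10.87), and 1 of the 9p regions had a single peak of fold 18.86.

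Copied sequence bears on these values, because a read that fits several places may be dropped or placed at random, and how such reads were treated is not given in the sources used here. A 31-base word found more than once in hg38 was called repeated. Repeated words made up a median of 36.0% of the words of the 9 regions within 15 kb of a tip, 2.29% in the outer 5p region and 85.2% in the 9p region called once. Over all 689 regions the median was 0.0%, 391 regions had no repeated word, and 37 had more than 50% repeated. Among those 37 were the RABL2B promoter (70.2%), which has a paralogue elsewhere in the genome, and the only region of the 1p end (68.9%).

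Accessible regions were fewer at the very tips and denser further in. Because distances count unsequenced bases, the first 50 kb held 0.9514 Mb of sequence, against 1.555 Mb from 50 to 100 kb. Per Mb of sequenced bases there were 26.3 regions in the first 50 kb, 24.4 from 50 to 100 kb, 28.9 from 100 to 200 kb, 38.7 from 200 to 300 kb, 50.4 from 300 to 400 kb and 44.8 from 400 to 500 kb. The next 500 kb inward held 54.9 per Mb, the stretch from 1000 to 2000 kb 48.1, and that from 2000 to 5000 kb 36.4. Coding genes followed a like course, with 9.46 per Mb in the first 50 kb, 19.2 from 300 to 400 kb and 9.48 from 2000 to 5000 kb. The share of regions open in all 8 libraries did not run the same way, at 52.0% in the first 50 kb and 43.9% from 400 to 500 kb. Median GC of the regions stayed between 57.0% and 61.3% out to 2000 kb, above the 44.6% to 49.6% of the sequence around them. The rule's limit fell among like regions. The outermost members by distance were the FAM120B promoter on 6q (499.34 kb, 8 libraries), a region near ZNF721 on 4p (499.17 kb, 8 libraries) and one near RNH1 on 11p (498.6 kb, 1 library). Just beyond it lay regions near COLEC12 on 18p (500.4 kb, 8 libraries), SPIRE2 on 16q (500.46 kb, 2 libraries) and GAS6 on 13q (500.66 kb, 8 libraries).

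**Figure D2:**
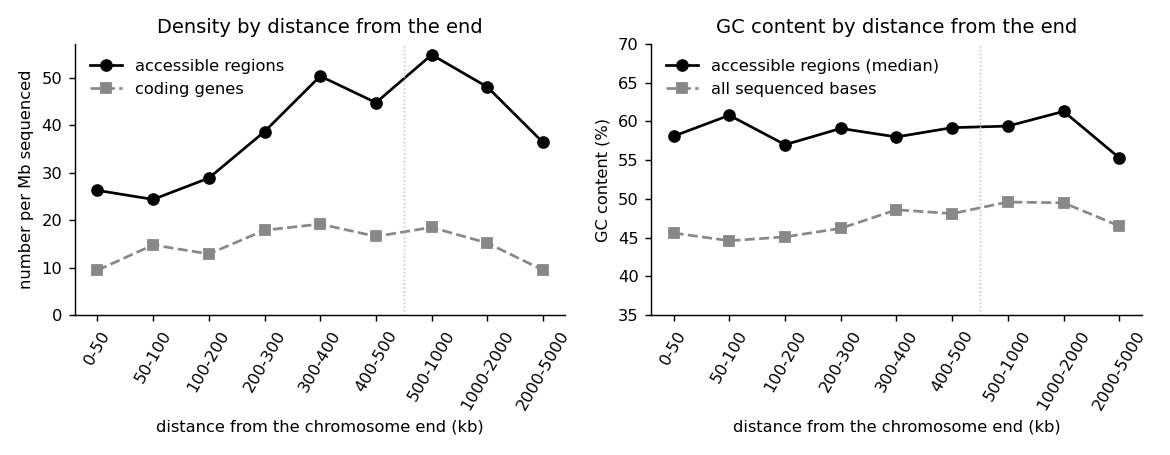
Left, accessible regions and coding genes per Mb of sequenced bases (vertical axis) by distance from the nearest end of chromosomes 1 to 22 (horizontal axis, kb); right, median GC content of the regions and GC content of all sequenced bases (%). The dotted line marks 500 kb. Region density climbed to 50.4 per Mb at 300 to 400 kb and 54.9 per Mb at 500 to 1000 kb, while region GC moved little.

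Chromosome ends differed widely. Of 44 ends, 39 have sequence in the window, 17.87 Mb in all, and the short arms of chromosomes 13, 14, 15, 21 and 22 have none in hg38. The median end held 16 regions, or 34.7 per Mb. The 3 richest ends were 16p and 5p, with 36 regions each (73.5 per Mb), and 5q, with 29 (65.9 per Mb). The 3 poorest were 1p with 1, 8p with 4 and 4q with 7 regions. Over the 39 ends, the number of regions per Mb and the number of coding genes had a Spearman correlation of 0.637, a description over ends that share the same libraries.

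Rich ends were rich in different ways. At 16p, 17 of 36 regions lay at promoters, around the alpha-globin genes and their neighbours among others. At 5p, 6 of 36 did, and many of the others were a run of introns of AHRR, the repressor of the aryl hydrocarbon receptor. At 5q, 4 of 29 did, with a run of intergenic regions between the olfactory receptor gene OR2V2 and TRIM7, a ubiquitin ligase gene. The single 1p region (chr1:181125-181829) was called in 3 E92K and 3 H2A libraries. At 4q, the end with the DUX4 repeats, the FRG1 promoter was open in all 8 libraries.

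Ends were also compared between the groups one by one. The smallest p that 70 assignments allow is 0.0286, so over 39 ends no single end could pass after adjustment. The one end with a permutation p under 0.05 was 3p, where the cell adhesion gene CHL1 lies, with 4, 4, 3 and 3 regions called in E92K libraries and 5, 4, 6 and 6 in H2A libraries. On the share of each library's regions its exact permutation p was 0.0286, and the Benjamini-Hochberg adjusted value over 39 ends was 1. The end 14q, inside the immunoglobulin heavy-chain variable genes, had 5, 1, 2 and 1 regions in E92K libraries and 6, 5, 5 and 5 in H2A libraries, so E92K replicate 1 stood with the H2A libraries. Its exact permutation p was 0.0857, with an adjusted value of 1. In the next 500 kb inward on that arm the counts were 3, 2, 4 and 2 in E92K libraries and 7, 6, 8 and 5 in H2A libraries, and in the 500 kb after that 5, 3, 4 and 2 in E92K libraries and 5 in each H2A library.

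**Figure D3:**
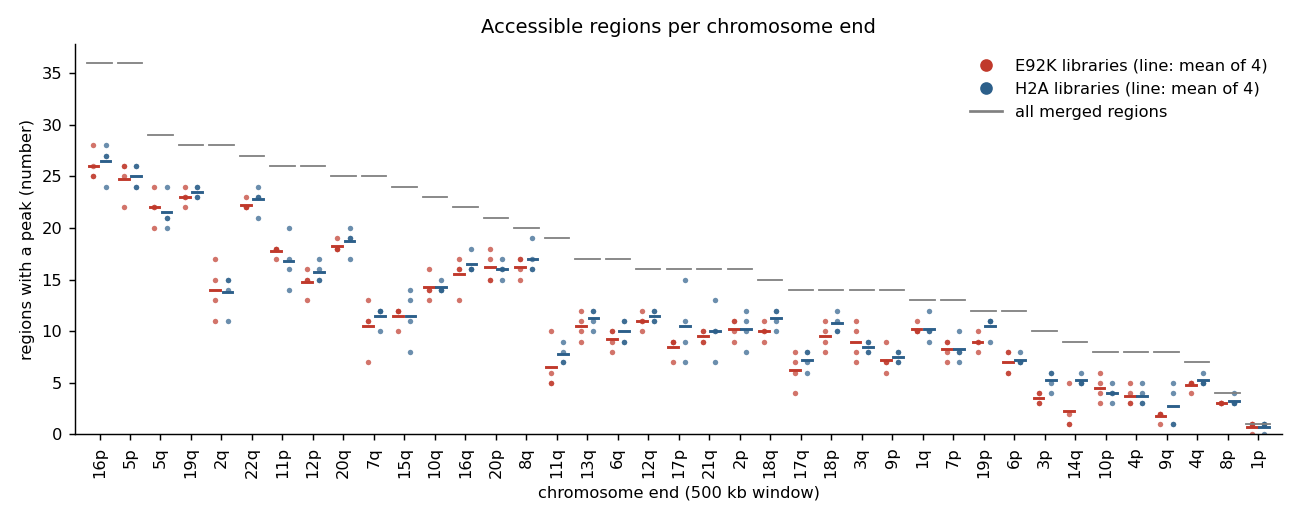
Number of accessible regions with a peak in each library (vertical axis) at the 39 chromosome ends with sequence, ordered by all merged regions (grey line). Red points and lines are the 4 E92K libraries and their mean, blue those of the 4 H2A libraries. Ends ranged from 36 merged regions at 16p and 5p to 1 at 1p, and the largest relative gap between group means was at 14q, with 2.25 in E92K and 5.25 in H2A libraries.

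Peaks near chromosome ends were richer in GC and more often at promoters than peaks elsewhere. In each library's own list, mean GC was 60.87% ± 0.371 near ends and 51.37% ± 0.274 in the rest of chromosomes 1 to 22 (SD, n = 8). The share of peaks within 1000 bp of a coding start site was 37.3% ± 1.01 near ends and 23.3% ± 0.8 in the rest (SD, n = 8). Peaks numbered 25.25 ± 0.947 per Mb near ends and 20.59 ± 0.783 per Mb in the rest, and their median width was 632 ± 14.2 bp near ends and 580.8 ± 10.5 bp in the rest. All 4 differences were above 0 in 8 of 8 libraries. An exact two-sided sign-flip permutation test gave p = 0.00781 for each, the smallest it can give over 256 assignments, with the same value after adjustment over the 4. The libraries share 1 genome, so this p covers their spread only. The density difference depended on the window: within 250 kb of an end it was -0.7294 peaks per Mb (exact permutation p = 0.0469). The GC and promoter traits were shared with the stretches next to the windows. Of merged regions from 500 to 1000 kb, 25.0% lay at promoters and the median GC was 59.4%. From 1000 to 2000 kb these values were 24.2% and 61.3%, and in the windows 27.0% and 58.6%.

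**Figure D4:**
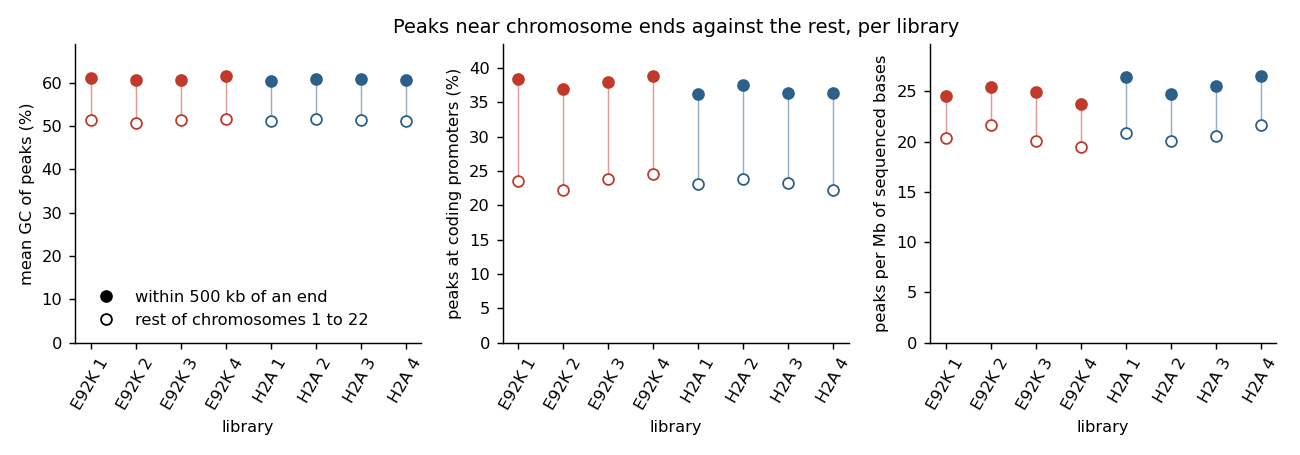
Mean GC of peaks (%), share of peaks at coding promoters (%) and peaks per Mb of sequenced bases in each library, E92K libraries in red and H2A libraries in blue. Filled points are peaks within 500 kb of an end and open points those in the rest of chromosomes 1 to 22. Filled points lie above open ones in all 8 libraries.

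Among merged regions, 27.0% of the 689 were at promoters, 6.1% in exons, 28.0% in introns and 38.9% intergenic, against 15%, 2.66%, 40.2% and 42.1% in the rest of these chromosomes. The GC difference held within each class, with medians of 66.2% near ends and 61.9% elsewhere at promoters, 55.7% and 44.7% in introns, and 55.2% and 45.6% in intergenic regions. Presence in all 8 libraries was found for 318 regions (46.2%) near ends and for 38.0% elsewhere, and presence in a single library for 173 (25.1%) near ends and 26.5% elsewhere. By class the order changed: 81.7% of subtelomeric promoter regions were called in all 8 libraries, against 86.5% elsewhere, while exon regions reached 54.8% near ends and 34.5% elsewhere. The CTCF core was present within 250 bp of the centre of 97 regions (14.1%), against 10.0% of all 96872 regions, and 2 or more cores stood in 12 regions (1.74%), against 0.265% of all. Within 20 kb of a tip 5 of 10 regions held the core. The core was chosen after the terminal sequences had been read, so these counts include the regions that prompted it. From 100 to 500 kb, away from those sequences, 13.7% of 626 regions held the core and 1.28% held 2 or more. Median GC was 58.6% near ends and 46.9% elsewhere, and whether GC accounts for the difference in core matches was not tested. A match is a sequence and not a binding site.

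The 10 strongest regions called in all 8 libraries, ranked by their lowest percentile within a list, were all coding promoters. The first was the promoter of TARS3, a threonyl-tRNA synthetase gene on 15q (chr15:101723702-101724919, 266.9 kb from the tip), whose folds were 14.20, 14.30, 14.11 and 13.50 in E92K libraries and 14.05, 14.55, 13.08 and 14.02 in H2A libraries. It was stronger than at least 99.97% of the peaks in each list, and the groups overlapped. The DYNC2I1 promoter on 7q, for a subunit of the ciliary dynein motor, had folds of 11.36, 11.43, 11.61 and 12 in E92K libraries and 11.02, 10.92, 11.71 and 11.63 in H2A libraries. The CHKB promoter on 22q, for choline kinase beta, had folds of 11.20, 10.85, 11.18 and 12.16 in E92K libraries and 11.88, 12.43, 12.08 and 12.01 in H2A libraries. Both overlapped between the groups.

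The other 7 were the promoters of ZNF140 and of the pair ZNF891 and ZNF10 on 12q, PDCD6 on 5p, FAM120B, PDCD2 and the divergent pair PSMB1 and TBP on 6q, and TM2D3 on 15q. TBP encodes the TATA-binding protein and PSMB1 a subunit of the proteasome. Their mean folds were 7.99 to 13.4 in E92K libraries and 8.15 to 13.4 in H2A libraries. The folds of the FAM120B promoter did not overlap, at 12.98, 12.94, 13.71 and 13.90 in E92K libraries and 12.73, 12.43, 12.72 and 12.43 in H2A libraries, while its percentiles did, at 98.85, 99.05, 99.34 and 99.34 in E92K libraries and 99.17, 98.56, 98.64 and 98.14 in H2A libraries. The folds of the other 6 overlapped. So 3 of the 10 lay on 6q, and all 10 had a percentile of at least 97.65 in every list.

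Genes at chromosome ends were either open in every library or in none for the most part. Of 279 coding genes with a start site in the windows, 166 (59.5%) had a promoter peak in all 8 libraries and 81 (29.0%) in none, against 68.7% and 25.0% of 18485 coding genes elsewhere. All 22 housekeeping genes in the windows, of 24 on that list, were open in all 8 libraries, among them SDHA of the respiratory chain, the ribosomal protein genes RPL8 and RPL35A, and TRIM28, the partner of KRAB zinc finger repressors. None of 20 olfactory receptor genes and none of 6 beta-defensin genes, which encode antimicrobial peptides, had a promoter peak in any library. The olfactory receptor genes include OR4F members at several ends. Whether reads from copied sequence were lost there was not tested, so these promoters are not shown to be closed.

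Of 38 zinc finger genes, mostly DNA-binding repressors, 28 (73.7%) were open in all 8 libraries and 7 in none, beside 59.5% of all coding genes of the windows and 68.7% of coding genes elsewhere open in all 8. The 12q cluster was open throughout, with ZNF605, ZNF26, ZNF84, ZNF140, ZNF891, ZNF10 and ZNF268 called in every library. On 4p the opposite held for ZNF595, ZNF718, ZNF732 and ZNF141, which had no promoter peak, while ZNF721 beside them was open in all 8. ZNF512B had one in 4 E92K and 2 H2A libraries. ZNF329 and ZNF544 had one in a single H2A library each.

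Of the gene families of subtelomeric duplications, 9 of 12 fixed names had a coding start site in the windows. FAM110C, FRG1 and FBXO25 were open in all 8 libraries, and TUBB8, TUBB8B, FRG2, FRG2B, DUX4 and WASHC1 in none. These 6 have near-identical copies at other ends, so reads from them could have been lost, which was not tested.

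The alpha-globin locus on 16p had 8 of 14 genes open in all 8 libraries. POLR3K, SNRNP25, RHBDF1, MPG, NPRL3, LUC7L and AXIN1, which surround the globin genes and are used in many tissues, were among them, together with HBQ1, the theta-globin gene. The globin genes HBZ, HBA2 and HBA1 and the isomerase gene PDIA2 had no promoter peak, HBM had one in 2 E92K and 1 H2A libraries, and ARHGDIG in 2 of each. The HBQ1 promoter (chr16:180434-181940) had folds of 6, 5.49, 5.90 and 6.14 in E92K libraries and 7.78, 7.88, 4.99 and 6.12 in H2A libraries, overlapping between the groups. HBA1 and HBA2 are near copies of each other, so reads may have been split between them.

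Of the interferon-induced transmembrane genes on 11p, among which IFITM1, IFITM2 and IFITM3 block virus entry, IFITM1 was open in all 8 libraries and IFITM3 in none. IFITM5 had a promoter peak in 4 E92K and 2 H2A libraries, and IFITM2 in 1 E92K and 0 H2A libraries. IFITM1, IFITM2 and IFITM3 are close in sequence.

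**Figure D5:**
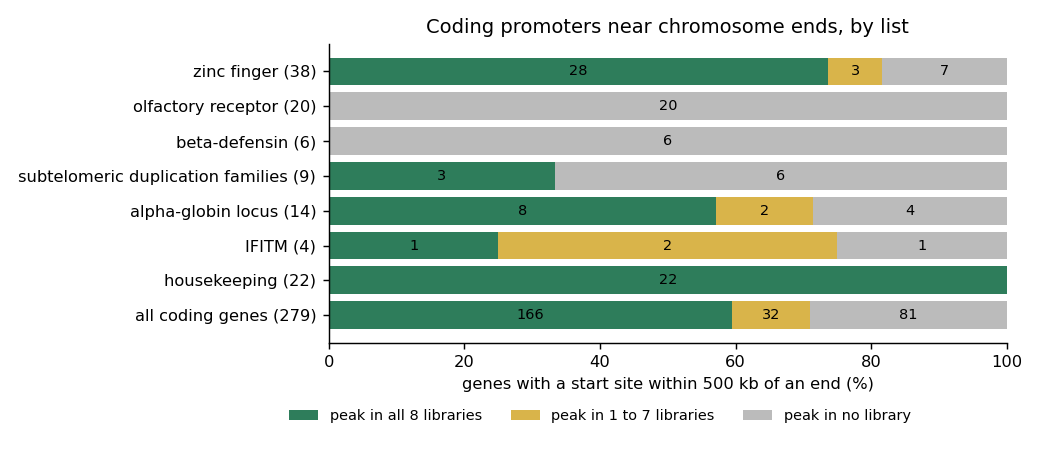
Share of coding genes with a start site within 500 kb of a chromosome end (horizontal axis, %) whose promoter had a peak in all 8 libraries, in 1 to 7 or in none, by gene list with the number of genes in brackets and in the bars. Housekeeping genes were open in 22 of 22 cases and olfactory receptor genes in 0 of 20. A promoter without a peak is not shown to be closed.

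No total near chromosome ends separated the groups after adjustment. Regions with a peak numbered 434, 449, 436 and 414 in E92K libraries and 462, 436, 450 and 468 in H2A libraries. The means were 433.2 ± 14.5 in E92K and 454 ± 14.1 in H2A (SD, n = 4 each), a difference of -20.75 (exact permutation test, two-sided p = 0.0857; Benjamini-Hochberg adjusted 0.229 over 8 measures). As a share of all regions of a library, the windows held 0.7558% ± 0.0155 in E92K and 0.7743% ± 0.00907 in H2A (SD, n = 4 each; exact permutation p = 0.0571, adjusted 0.228). The share scales by list length and may not remove its effect in full. The longest list of each group had the lowest share of its group, 0.734% in E92K replicate 2 and 0.764% in H2A replicate 4. That share has the same direction without the 37 regions of mostly repeated sequence, a setting added after the data were seen (-0.01649 percentage points, exact permutation p = 0.0286, unadjusted). E92K libraries were on the whole shallower. With lists of equal length the number of regions differed by -11.0 (exact permutation p = 0.0857) and the share by -0.01957 percentage points (exact permutation p = 0.0857), and with a −log10 q of 5 or more the number differed by -9.75 (exact permutation p = 0.257).

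The promoter share of subtelomeric peaks was 38.0% ± 0.812 in E92K and 36.6% ± 0.646 in H2A (SD, n = 4 each; exact permutation p = 0.0571, adjusted 0.228). Covered length was 320.5 ± 17.4 kb in E92K and 335.5 ± 12.1 kb in H2A (SD, n = 4 each; exact permutation p = 0.286). Mean GC was 61.01% in E92K and 60.73% in H2A, median width 628.1 bp in E92K and 635.9 bp in H2A, and the median percentile of subtelomeric peaks in lists of equal length 60.71 in E92K and 60.89 in H2A, with exact permutation p-values of 0.371, 0.486 and 0.914 (n = 4 each). Open promoters numbered 178.5 ± 1.29 in E92K and 179 ± 2.83 in H2A (SD, n = 4 each; exact permutation p = 0.857). None of the 8 measures passed. The smallest p that 70 assignments allow is 0.0286, so a single measure at that value would not pass after adjustment over the 8.

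A single region was called in 4 libraries of a group and in 0 of the other. It lay on 20p (chr20:330460-330828), inside the antisense transcript NRSN2-AS1 and 5.1 kb downstream of the start of SOX12, a transcription factor gene of the embryonic nervous system. Its summit sequence holds 1 CTCF core in capitals.
20p, chr20:330596-330795, plus strand: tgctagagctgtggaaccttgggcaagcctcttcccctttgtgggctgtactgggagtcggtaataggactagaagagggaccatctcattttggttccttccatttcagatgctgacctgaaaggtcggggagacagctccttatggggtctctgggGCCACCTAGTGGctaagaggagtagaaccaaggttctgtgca
The folds were 3.08, 2.15, 2.29 and 2.88 in E92K libraries, against no peak in the 4 H2A libraries, and in E92K replicate 2 the peak was stronger than only 23.4% of its list. This is 1 of 689 regions (0.145%), against a background of 0.139% of all 96872 regions called in the E92K direction. In the H2A direction 0 of the 689 were called, against a background of 0.184%. Fisher's exact test per region had a smallest p of 0.0286, the smallest that 4 against 4 libraries can give. At an unadjusted p under 0.05 were 313 of all regions and 1 of the 689. After Benjamini-Hochberg adjustment over all 96872 regions 0 passed, and with so few at the smallest p none could have. With looser leaning, 21 regions (3.05%) had a peak in at least 2 more E92K than H2A libraries, against 5.36% of all regions, and 47 (6.82%) in at least 2 more H2A than E92K libraries, against 6.38% of all.

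At the level of promoters, no gene in the windows was open in all libraries of one group only. The coding genes that differed by at least 2 libraries, picked out after their values were seen, were CALY, IFITM5 and ZNF512B (4 E92K and 2 H2A libraries), SOX18 (3 and 1) and ADM2 (2 and 0). In the other direction they were CHL1 (2 E92K and 4 H2A libraries), SCGB1C2, C2CD4C and RNF225 (1 and 3), and ODF3 and S100B (0 and 2). How many coding genes elsewhere differed as much was not counted, so this list does not set genes near ends apart.

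Strength was compared through percentiles in lists cut to their strongest 55527 peaks, a comparison added after the data were seen. Of the 310 subtelomeric regions with a peak in all 8 such lists, 6 (1.94%) had a higher percentile in every E92K library than in any H2A library, against a background of 4.0% over 35666 regions. In 8 (2.58%) it was lower in every E92K library, against a background of 2.31%. The count on the E92K side was below its background and that on the H2A side close to it.

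The largest gap with lower E92K values was in an intron of RAB11FIP3 on 16p, which encodes an effector of the recycling GTPase RAB11. Its percentiles were 37.6, 31.46, 0.18 and 15.51 in E92K libraries and 48.29, 47.38, 49.82 and 48.33 in H2A libraries. The 11q terminal region printed above followed, with 57.07, 42.27, 48.08 and 49.71 in E92K libraries and 70.13, 62.78, 63.2 and 69.09 in H2A libraries. The other 6 included the promoters of POLR3K on 16p and TUBGCP2, a gamma-tubulin complex gene on 10q, with differences of -1.43 and -3.71 percentile points.

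Among the 6 with higher E92K values, the widest gap was in an intron of DYNC2I1 on 7q, 7.6 kb downstream of its start. Its percentiles were 41.58, 57.61, 56.24 and 44.67 in E92K libraries and 34.17, 13.16, 26.81 and 34.28 in H2A libraries. The others lay in introns of IQSEC3 on 12p and COLEC12 on 18p, over an exon of the ubiquitin ligase gene TRIM41 on 5q, downstream of ACR on 22q and at the LUC7L promoter on 16p, with differences of 4.2 to 16.37 percentile points. Only the pattern of no overlap is given for these regions, with no test of a single one.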

How the data were processed

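ATAC-seq peak lists of 8 HEK293T libraries were used, 1 list per library. The labels name hg38 as the genome of the alignment. How duplicate or multiply placed reads were treated can change which repeated regions are called. It is not given in the sources used here, and neither is the aligner or peak caller. The deposited lists have no header and 10 columns: a whole-number score that follows the q-value, a fold ratio of each summit over local background, the −log10 of a p-value and a q-value, and the summit offset. The smallest deposited −log10 q was 2, a q-value of 0.01. Folds are set side by side as the authors' own values and were not tested between lists, which share no common scaling. Strength was compared between libraries by percentiles in lists of equal length.

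A peak was a distinct interval, represented by its most significant summit. Overlapping or touching peaks of the 8 lists were merged, and a region counted as present with at least 1 bp covered. Pileup and background were solved from the fold and the p-value as a Poisson test, within 0.005 of the −log10 p in at least 99.84% of summits. Promoters lay within 1000 bp of a coding start site of GENCODE 44 on GRCh38, which is hg38. Library values were compared by exact permutation tests and regions by Fisher's exact test, both adjusted by Benjamini-Hochberg. The code was tested on simulated lists with known differences. Named by rule were the regions called in 1 group only, the 10 strongest, the 5 most terminal, the 3 richest and 3 poorest ends, and genes of the fixed lists. The regions and lists were chosen with earlier results of these data known. Analyses used Python 3.11.15, numpy 2.4.6 and scipy 1.17.1.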

Additional observations from a re-analysis of the deposited data

Results flagged for a closer look

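The excess of promoters among peaks near chromosome ends differed between the groups before adjustment and did not pass after it. The promoter share near ends minus that in the rest of chromosomes 1 to 22 was 14.49 percentage points in E92K libraries and 13.51 in H2A libraries (n = 4 each), a difference of 0.9749 points with all 4 E92K libraries above all 4 H2A libraries. Its exact permutation p was 0.0286, the smallest that 70 assignments can give, and 0.114 after adjustment over the 4 measures compared in this way. In alternatives added after the data were seen the difference stayed positive, from 0.7798 within 250 kb of an end (exact permutation p = 0.286) to 1.585 among peaks with a −log10 q of 5 or more (exact permutation p = 0.0571). E92K libraries were on the whole shallower, and with lists of equal length the difference was 1.024 (exact permutation p = 0.114). In 10 of 16 alternatives the unadjusted p was no longer under 0.05, and leaving out 1 library in turn gave 0.8368 to 1.147. None of 16 groups of 4 library values held a sample that stood apart by Dixon's test.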

How the results depend on the processing

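Of the settings tried, the window moved the most values. At 1 Mb the share of regions differed by -0.07723 percentage points and the promoter share by 1.791 (exact permutation p = 0.0286 each), and the differences in median width (6.375 bp) and median percentile (1.012) turned positive. At 250 kb the median percentile difference was 0.814 and the excess of peak density over the rest -0.7294 per Mb. Open promoters differed by 1.75 with a −log10 q of 5 or more and by 0.5 with lists of equal length. Leaving out 1 library in turn gave -0.02362 to -0.01118 for the share of regions (exact permutation p = 0.0286 without E92K replicate 3, over 35 assignments), -1.146 to 0.2379 for the median percentile, -1.833 to 0.1667 for open promoters, 0.09571 to 0.4093 percentage points for mean GC (lowest without E92K replicate 4), -16.04 to -2.708 bp for median width (without E92K replicate 2 and without E92K replicate 4), -22.34 to -8.149 kb for covered length (without the same 2 libraries), and 1 to 4 regions called in 1 group only (4 without H2A replicate 3, 3 without H2A replicate 1 or 4, and 2 without any other library except E92K replicate 4). That count was 0 within 250 kb and with a −log10 q of 5 or more, 2 with lists of equal length and with distance from the first sequenced base, 3 with regions at least 50% covered and 4 within 1 Mb. Over all 96872 regions the calls were 135 (0.139%) in the E92K direction and 178 (0.184%) in the H2A direction, whatever the window. With a −log10 q of 5 or more they were 143 and 138 of 63872 regions, where 485 regions lay near ends. Lists of equal length gave 154 and 148 of 87627 regions, where 627 lay near ends. With regions at least 50% covered they were 158 and 196 of 96872 regions, where 689 lay near ends. The member counts are small beside these and were not tested against them. Each left-out library raised both, to 217 to 321 in the E92K direction and 270 to 369 in the H2A direction. Leaving out a library loosens the rule, because fewer libraries have to agree. A rise in these counts and in those near ends is therefore built in. Without H2A replicate 3 they were 237 and 333 of 93811 regions, where 669 regions lay near ends. The 1 Mb window held 1754 regions and the 250 kb window 244. Without the 37 regions of mostly repeated sequence the share differed by -0.01649 (exact permutation p = 0.0286). The number of regions differed by -11.25 within 250 kb, -11.0 with lists of equal length and -9.75 with a −log10 q of 5 or more. Chromosome ends with an unadjusted p under 0.05 numbered 0 to 4 across settings, with 4 at 1 Mb and without H2A replicate 4. The replicate block, a sign-flip over the 4 same-numbered pairs, could make no measure pass, because 0.125 is its smallest possible p. The number of regions differed by -20.75 with an exact sign-flip permutation p of 0.25. Same-numbered libraries did not deviate together in their calls (r of -0.0092 to -0.0015), and neither did the other pairs (r of -0.0056 to 0.0087). This rests on presence calls only, so it cannot decide whether same-numbered libraries share a culture or batch, which is not labelled. Apart from the rule being looser with a library left out, the cause of these moves was not tested. A region without a peak is below calling at the depth of that list.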

Other observations

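The 37 regions with over 50% repeated words were not all near the tips. They made up 3 of 9 regions within 15 kb of an end and 4 of 54 from 15 to 100 kb. The other 30 were among the 626 regions from 100 to 500 kb. The one with the largest repeated share, 90.85%, lay 193.2 kb from the end of 6q (chr6:170612485-170613017) and was called in 3 E92K libraries, with folds of 4.69, 5.71 and 4.02, and in 2 H2A libraries, with folds of 3.77 and 4.84. On 14q, the region called in every library (chr14:106872525-106873380) had folds of 7.53, 7.61, 11.02 and 9.66 in E92K libraries and 9.68, 8.36, 7.90 and 10.33 in H2A libraries, so it overlapped between the groups. No explanation was tested for these values.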
